A study of Homo sapiens with 4 samples.

Results

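The AP-1 and small MAF transcription factors were followed in MDA-MB-231, a human cell line from breast cancer, through 10 genes: FOS, FOSB, FOSL1, FOSL2, JUN, JUNB, JUND, BATF3, MAFF and MAFK. These genes were taken by symbol from the 61541 genes of the count table, by a rule that used no measured value, although the choice of these genes was made with earlier results of these data known. RNA-seq was performed on 2 libraries of control cells, which were given no treatment, and 2 libraries of cells passaged long term in cadmium. The cadmium was given as CdSO4 and raised to a final 10 µM, and the study calls these cells cadmium-resistant. The resistant cells are a selected population of a single line, and control libraries are called control 2 and control 3 after the numbers in the table. Nothing in the labels says that the cadmium libraries came from separate cultures, so the p-values measure only the spread between these libraries.

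FOS and JUN proteins carry a basic leucine zipper and bind DNA as pairs, called AP-1, at a short palindrome found in many enhancers. JUN proteins can pair with themselves or with FOS proteins, whereas FOS proteins need a partner, and FOS, FOSB, JUN and JUNB are immediate-early genes that are transcribed within minutes of growth factor or stress signals. The small MAF proteins have a zipper but no activation domain, and they pair with CNC factors such as NRF2 at antioxidant genes or with BACH repressors at the same sites. The comparison asks whether the messenger RNAs of these factors differ between cadmium-resistant and control cells.

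The libraries held 51934729 to 61916007 reads assigned to genes, and the control pair was much less alike than the cadmium pair. Of 19816 genes tested, 23.1% were more than 2-fold apart in the controls, whereas 7.44% were in the cadmium pair. Markers of mesenchymal breast lines (VIM, CD44, AXL, CAV1 and MSN) were abundant in every library, with a summed level of 3866 to 4549 TPM (a read count scaled by gene length and by the library's total). MSN had 462 TPM in control 2, 935 TPM in control 3, and 1214 and 1240 TPM in cadmium 1 and cadmium 2. For VIM and CAV1 both cadmium libraries lay below both controls. The 6 luminal markers together had 94.6 TPM in control 2 and 35.5 to 43.1 TPM in the other libraries, with ESR1 at 0.0999 TPM or less. EPCAM was the largest part of that sum in every library, with 71.9 TPM in control 2 and 21.3 TPM in control 3. CDH1 alone was higher in control 3 (7.91 TPM) than in control 2 (1.27 TPM). The 5 immune, endothelial and fibroblast markers together had 7.46 TPM in control 2 and 12.6 to 18.2 TPM in the other libraries, and DCN had no read in 3 libraries. LUM, unlike that sum, was highest in control 2, with 1.92 TPM there and 0.436 TPM in control 3. PTPRC had 2 reads in control 2 and 135 reads in control 3. The part of these marker differences in the results was not tested. In bulk RNA, fewer cells that express a gene and less RNA per cell cannot be told apart.

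The promoter sequences of FOS, FOSB, FOSL2 and JUND are shown because FOS and FOSB differed most between the libraries, and FOSL2 and JUND gave the lowest p-values of the 10 genes. They are the 250 bases before the RefSeq start site (build GRCh38.p14), written 5′ to 3′ on the gene's strand, with TGACGT, the core of the cyclic AMP response element, in capitals on either strand. The full palindrome TGACGTCA, which contains that core, is also in capitals.
FOS, chr14:75278578-75278827, plus strand: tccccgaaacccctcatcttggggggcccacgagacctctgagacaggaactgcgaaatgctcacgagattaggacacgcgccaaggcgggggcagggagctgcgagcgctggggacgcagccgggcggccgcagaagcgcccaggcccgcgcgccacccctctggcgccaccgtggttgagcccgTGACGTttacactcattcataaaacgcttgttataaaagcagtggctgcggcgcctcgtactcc
FOSB, chr19:45467746-45467995, plus strand: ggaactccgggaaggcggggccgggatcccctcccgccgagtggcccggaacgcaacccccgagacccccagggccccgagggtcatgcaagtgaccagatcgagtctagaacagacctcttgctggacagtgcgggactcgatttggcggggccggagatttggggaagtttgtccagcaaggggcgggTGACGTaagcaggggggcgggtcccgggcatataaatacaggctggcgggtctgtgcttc
FOSL2, chr2:28392608-28392857, plus strand: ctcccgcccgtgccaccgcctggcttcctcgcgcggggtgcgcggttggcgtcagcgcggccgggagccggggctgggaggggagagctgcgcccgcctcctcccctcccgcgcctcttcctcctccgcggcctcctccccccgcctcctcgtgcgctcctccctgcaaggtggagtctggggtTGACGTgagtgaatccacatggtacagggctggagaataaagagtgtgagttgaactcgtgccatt
JUND, chr19:18281623-18281872, minus strand: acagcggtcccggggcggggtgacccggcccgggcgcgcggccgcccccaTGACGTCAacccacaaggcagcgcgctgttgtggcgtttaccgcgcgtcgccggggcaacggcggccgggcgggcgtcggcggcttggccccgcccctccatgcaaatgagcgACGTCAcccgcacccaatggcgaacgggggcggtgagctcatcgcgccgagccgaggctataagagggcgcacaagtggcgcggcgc

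All 4 of these promoters held TGACGT, which is at -64 in FOS, -60 in FOSB, -66 in FOSL2 and at -200 and -87 in JUND, counted to the first base of the match before the start site. Of the other members with a window, JUN and JUNB did not hold it and MAFF did. TGACGT was found in 7.98% of the 35116 RefSeq promoter windows, each 250 bases before to 50 after a start site and searched on both strands, and it was chosen after these sequences had been read. The JUND site at -200 was the full TGACGTCA, which 1.85% of the windows held and which was also found at -54 in 1 of the 2 MAFF windows. The AP-1 site TGANTCA was found in FOSL2 alone among the 7 members with a window, as TGACTCA starting at base 5 after the start site, against 7.71% of all windows. The pattern TGCNCNC, where N is any base, is looser than the metal response element core, so a match need not be such an element. It was found in the windows of JUN, FOSL2, FOS, JUNB and JUND, and in 55.9% of all windows. The CArG box, the site of serum response factor, was found in none of the members' windows and in 1.29% of all windows. Bases farther upstream were not searched, so its absence holds for these windows only. FOSL1, BATF3 and MAFK had no entry in the table of sequences. A match describes the letters in these windows only.

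FOSL1, which encodes the FOS-like protein FRA1, was by far the most abundant of the 10 transcripts. On the TPM scale its level was 1681 and 1662 in control 2 and control 3, and 1459 and 1526 in cadmium 1 and cadmium 2. Its lowest library therefore lay above the highest library of every other member. JUN followed with 260 to 384 TPM, JUND with 245 to 405 TPM, FOSL2 with 164 to 252 TPM, FOS with 43.8 to 375 TPM and JUNB with 102 to 179 TPM. The ranges of these 5 genes overlapped from each to the next in that order. MAFK had 36.9 to 49.95 TPM, below every JUNB value and above every MAFF value of 25.5 to 35.3 TPM. FOSB ranged from 2.76 to 87.2 TPM and BATF3 from 8.29 to 33.4 TPM, with BATF3 below MAFF in all 4 libraries. The places of FOS and FOSB depended on the library: in control 2 FOSB lay above MAFK (87.2 and 42.6 TPM), and in control 3 FOS lay below it (43.8 and 49.95 TPM).

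Among the 4 FOS genes, FOSL1 made up 70.2% and 85.0% of the summed TPM in control 2 and control 3, and 81.0% and 86.2% in cadmium 1 and cadmium 2. The control libraries lay on either side of cadmium 1, and the difference of the group means, 6.05 percentage points, was smaller than the control SD of 10.5 (n = 2). FOS itself supplied 15.7% in control 2 and 2.24% in control 3, against 9.02% and 3.88% in the cadmium libraries. Among the 3 JUN genes, JUN supplied 40.5% and 33.9% of the summed TPM in the controls and 47.3% and 47.7% in the cadmium libraries. JUND supplied 40.6% and 52.7% in the controls and 32.02% and 35.0% in the cadmium libraries. Of the raw counts in the controls, JUN held 56.5% and 49.4% and JUND 30.2% and 40.9%, so their order there depended on the scaling by gene length. Both cadmium libraries lay above the control shares of JUN and below those of JUND, where the levels of 40.3% of tested genes lay outside the control range. Shares of a sum are tied to each other, and the JUN level itself lay between the controls in both cadmium libraries. For 2 against 2 libraries an exact permutation test cannot give a two-sided p below 0.33, so no test of these shares is given.

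**Figure D1:**
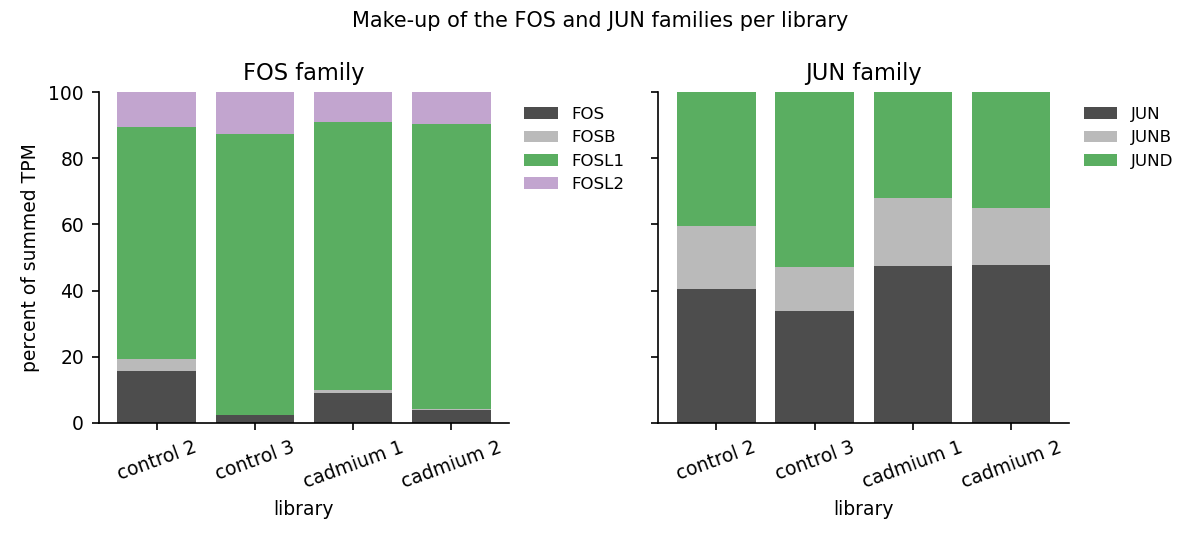
Stacked bars give the percent of the summed TPM (y axis) of the FOS family (left) and the JUN family (right) held by each gene in each of the 4 libraries (x axis). FOSL1 held 70.2% to 86.2% of the FOS family, and JUND held 40.6% and 52.7% of the JUN family in the controls against 32.02% and 35.0% in the cadmium libraries.

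Differential expression was tested with DESeq2 across all genes on raw counts, at an adjusted p-value below 0.1. None of the 10 genes was called, where 1.14% of the 19816 tested genes were (0.601% higher and 0.535% lower in cadmium). The edgeR quasi-likelihood test and limma-voom, which call 0 genes over the whole table, called none either. At an unadjusted p below 0.05, DESeq2, edgeR and limma-voom each had 2 of the 10 genes, and 6.92% of all tested genes had such a p with DESeq2 (edgeR: 7.83%). Both cadmium libraries lay below both controls for FOSL1, FOSL2, JUND and MAFK (4 of 10, against 19.9% of tested genes) and above both controls for 0 of 10 (against 20.3%), and 40.3% of tested genes lay outside the control range on either side. For the other 6, namely FOS, FOSB, JUN, JUNB, BATF3 and MAFF, both cadmium libraries lay between the controls, as they did for 30.8% of tested genes. The median log2 fold change was -0.48 over the 10 genes and -0.02 over all tested genes, and the median of the 10 was 0.38 without control 2.

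**Figure D2:**
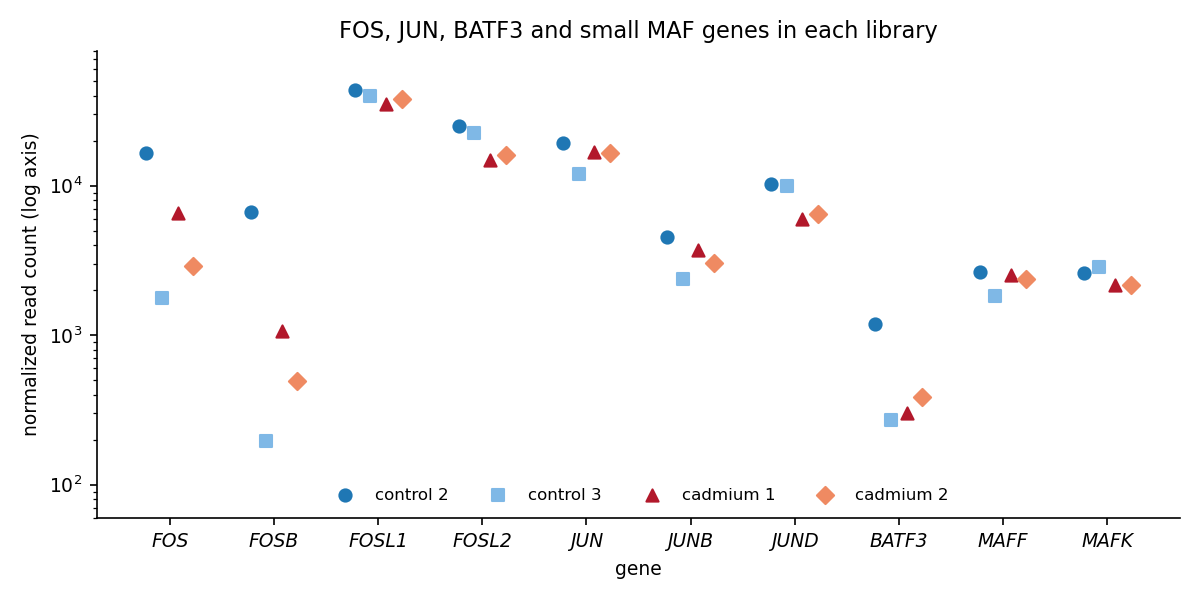
Points give the normalized read count (y axis, log scale) of each gene (x axis) in each of the 4 libraries. The cadmium libraries lie below both controls for FOSL1, FOSL2, JUND and MAFK and between the controls for the other 6 genes.

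The FOS-like genes FOSL2 and FOSL1 had cadmium values below both controls, by amounts that did not pass the test. FOSL2 (ENSG00000075426, chromosome 2, 28392448 to 28417317, hg38, plus strand), which encodes FRA2, had normalized counts of 24925 and 22622 in control 2 and control 3 and of 14902 and 15957 in cadmium 1 and cadmium 2. The groups did not overlap, and each group varied by less than 1.11-fold. Its log2 fold change was -0.62 (standard error, SE, 0.24) at a DESeq2 adjusted p of 0.360, so the difference did not pass the test. FOSL1 (ENSG00000175592, chromosome 11, 65892049 to 65900573, minus strand) had normalized counts of 43781 and 40109.5 in the controls and of 35022 and 38056 in the cadmium libraries. These also did not overlap, but the gap was small, with a log2 fold change of -0.20 (SE 0.24) at a DESeq2 adjusted p of 1.00. The 95% interval of the FOSL1 change, -0.68 to 0.28 on the log2 scale, includes no change.

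The immediate-early genes FOS and FOSB varied most, with the controls at either end of their range. FOS (ENSG00000170345, chromosome 14, 75278826 to 75282230, plus strand) had normalized counts of 16489 (control 2) and 1784 (control 3), a ratio of 9.24, and of 6582 and 2891 in the cadmium libraries. FOSB (ENSG00000125740, chromosome 19, 45467995 to 45475179, plus strand) had 6682 in control 2 and 196 in control 3, a ratio of 34.2, and 1071 and 497 in the cadmium libraries. Both genes were highest in control 2, lowest in control 3 and higher in cadmium 1 than in cadmium 2, and they were the only 2 of the 10 whose cadmium libraries differed more than 2-fold, by 2.28-fold for FOS and 2.16-fold for FOSB. The log2 fold change of FOS was -0.95 (SE 1.29), and that of FOSB was -2.13 (SE 1.83), each at a DESeq2 adjusted p of 1.00. Without control 2 these fold changes were 1.41 and 2.00 with a DESeq2 adjusted p of 0.454 and 0.161, respectively, so the sign followed the control used.

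JUND was the member with the lowest p-value, and it was the one most alike between its controls. JUND (ENSG00000130522, chromosome 19, 18279694 to 18281622, minus strand), the JUN protein that is made steadily rather than induced, had normalized counts of 10257 and 9984 in the controls and of 6023 and 6476 in the cadmium libraries. Each cadmium library was at 0.587 to 0.649 of each control. The log2 fold change was -0.70 (SE 0.24, 95% interval -1.17 to -0.22) at a DESeq2 adjusted p of 0.219 (unadjusted, 0.00395). Among the alternatives run with all 4 libraries, it passed the threshold only when the fit kept just the genes with at least 10 counts in at least 2 libraries. With that filter, which called 1.32% of genes, the DESeq2 adjusted p was 0.0851.

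JUN and JUNB, which are both induced by stress kinases, had cadmium values between those of the controls. JUN (ENSG00000177606, chromosome 1, 58776845 to 58784048, minus strand) had normalized counts of 19203 (control 2) and 12064 (control 3), with the cadmium libraries between them at 16713 and 16586. Its log2 fold change was 0.09 (SE 0.32) with a 95% interval of -0.53 to 0.72. JUNB (ENSG00000171223, chromosome 19, 12791486 to 12793315, plus strand) had normalized counts of 4528 and 2392 in the controls and 3693 and 3030.1 in the cadmium libraries. Its log2 fold change was -0.04 (SE 0.38) with a 95% interval of -0.78 to 0.70, and the sign turned with upper-quartile scaling (0.02) and with limma-voom (0.02).

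BATF3, a partner of JUN proteins best known in dendritic cells, again was highest in control 2. FOS, FOSB and BATF3 were the 3 of 10 genes more than 2-fold higher in control 2 than in control 3, against 10.0% of tested genes. Its normalized counts (ENSG00000123685, chromosome 1, 212686417 to 212699840, minus strand) were 1184 in control 2 and 272 in control 3, and 301 and 387 in the cadmium libraries. The log2 fold change was -1.08 (SE 0.61) at a DESeq2 adjusted p of 0.796, and it was 0.33 without control 2. The small MAF gene MAFF (ENSG00000185022, chromosome 22, 38200767 to 38216507, plus strand), which is induced by stress, had 2648 and 1830 in the controls and 2521 and 2382 in the cadmium libraries. The cadmium values lay between the controls, with a log2 fold change of 0.13 and an SE of 0.30. MAFK (ENSG00000198517, chromosome 7, 1530702 to 1543043, plus strand) had 2627 and 2855 in the controls and 2179 and 2180 in the cadmium libraries. These did not overlap, and the log2 fold change was -0.33 (SE 0.25) at a DESeq2 adjusted p of 0.962. The summed level of MAFF and MAFK ranged from 69.0 to 76.8 TPM over the 4 libraries. That sum leaves out the small MAF gene MAFG, which is not one of the 10 genes. MAFG had 62.6 and 61.1 TPM in the controls and 78.7 and 73.6 TPM in the cadmium libraries.

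**Figure D3:**
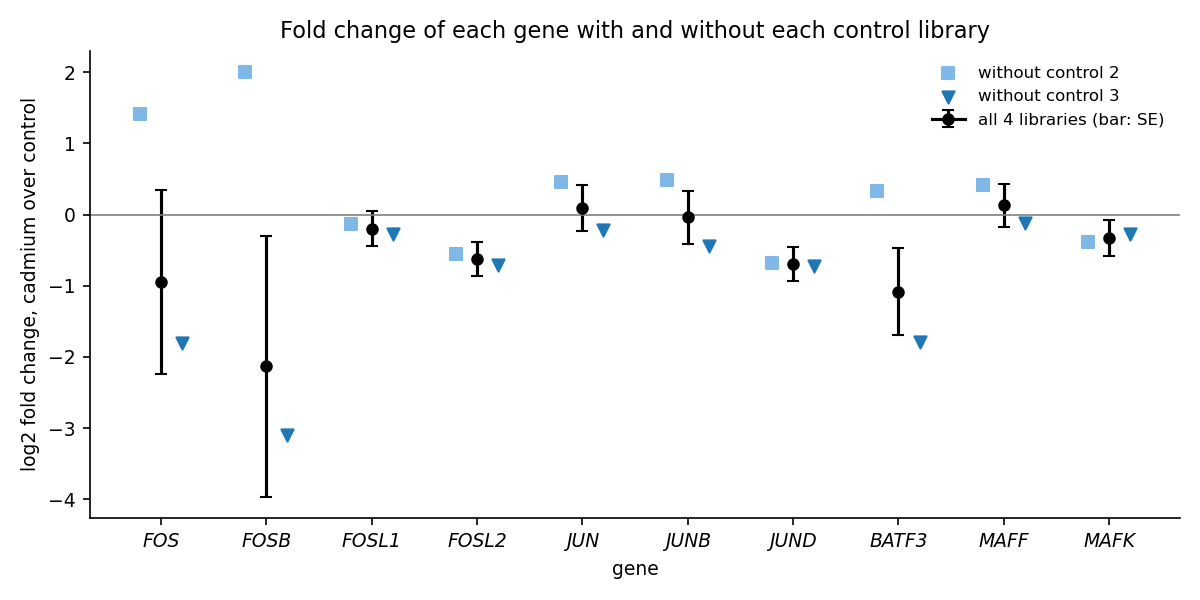
For each gene (x axis) the log2 fold change of cadmium over control from DESeq2 (y axis) is shown with all 4 libraries (circle, bar for 1 standard error), without control 2 (square) and without control 3 (triangle). FOS, FOSB, JUN, JUNB, BATF3 and MAFF have opposite signs against control 2 and control 3, whereas FOSL1, FOSL2, JUND and MAFK are negative in each case.

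With a single control left in the fit, the calls depended on which one it was. Without control 2, FOSL2, JUND and MAFK were called lower and JUN, JUNB and MAFF higher (6 of 10, against 14.8% of all tested genes). Without control 3, FOSB, FOSL1, FOSL2, JUNB, JUND and BATF3 were called lower (6 of 10, against 31.2%). FOSL2 and JUND were the genes called in the same direction in both, and JUNB was called in opposite directions. Without cadmium 1 or without cadmium 2 none of the 10 was called, against 0.114% and 0.107% of tested genes. A lone control is assumed in such a fit to vary like the tightly matched cadmium pair, whereas the controls differed from each other more than the cadmium libraries did.

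The position of the genes was examined because neighbouring genes also differed between libraries. On each side of each gene the 20 nearest genes at or above 100 normalized counts on average were taken. This gave 40 neighbours per gene, and 37 for MAFK, near a chromosome end. The group means were compared as a log2 ratio, cadmium over control. JUND had a log2 ratio of -0.70 where its neighbours had a median of -0.11, and FOSL2 one of -0.62 where its neighbours had -0.31. Against control 2 alone JUND was at -0.71 and its neighbours at -0.21, and against control 3 alone they were at -0.68 and -0.08. FOSL2 was close to its neighbours against control 2 (-0.69 and -0.66) and apart from them against control 3 (-0.55 and 0.09). MAFK had a log2 ratio of -0.33 against a median of -0.37 in its part of chromosome 7, and it lay just above its neighbours against each control. FOSL1 had -0.20 against -0.37, but its place depended on the control: it lay above its neighbours against control 2 (-0.26 and -0.62) and below them against control 3 (-0.13 and -0.02). The medians around the other 6 genes ranged from -0.38 (JUN) to 0.12 (FOS). The part of regional differences in these results was not tested. Reads were counted without regard to strand, and exons of a gene on the opposite strand overlap 18.1% of the exonic bases of MAFK (TMEM184A), 14.2% of JUNB (HOOK2) and 5.81% of MAFF (PLA2G6), which makes those counts uncertain.

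Many other immediate-early genes were, like FOS and FOSB, higher in control 2 than in control 3, but not all of them. KLF4, NR4A3 and KLF10 went the other way, with ratios of control 2 over control 3 of 0.548, 0.593 and 0.600. Of the 17 genes in that list, 11 were more than 2-fold higher in control 2 than in control 3 and 0 were more than 2-fold lower, against 10.0% of tested genes that were more than 2-fold higher. EGR1, an early growth response factor, had normalized counts of 6431 and 1166 in control 2 and control 3, and 4521 and 7633 in cadmium 1 and cadmium 2. The median log2 ratio of control 2 over control 3 was 1.42 in this list, 0.60 over the 10 AP-1 and MAF genes and 0.01 over all tested genes. Between the groups no gene of the list was called and the median log2 fold change was 0.04. An unadjusted DESeq2 p below 0.05 was found for 3 of the 17 (IER3, BTG2 and NR4A3), against 6.92% of all tested genes. IER3, an early stress response gene, had 15368 and 10478 in the controls and 20599 and 22493 in the cadmium libraries (log2 fold change 0.74, DESeq2 adjusted p 0.420). BTG2, an antiproliferative gene, had 190 and 31.9 in the controls and 17.9 and 27.6 in the cadmium libraries (log2 fold change -2.29, DESeq2 adjusted p 0.325). NR4A2, a nuclear receptor, had a log2 fold change of -1.09 at a DESeq2 adjusted p of 0.739. NR4A3 went the other way, with normalized counts of 15.1 and 25.5 in the controls and 56.7 and 76.0 in the cadmium libraries. Its log2 fold change was 1.71 at a DESeq2 adjusted p of 0.379.

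**Figure D4:**
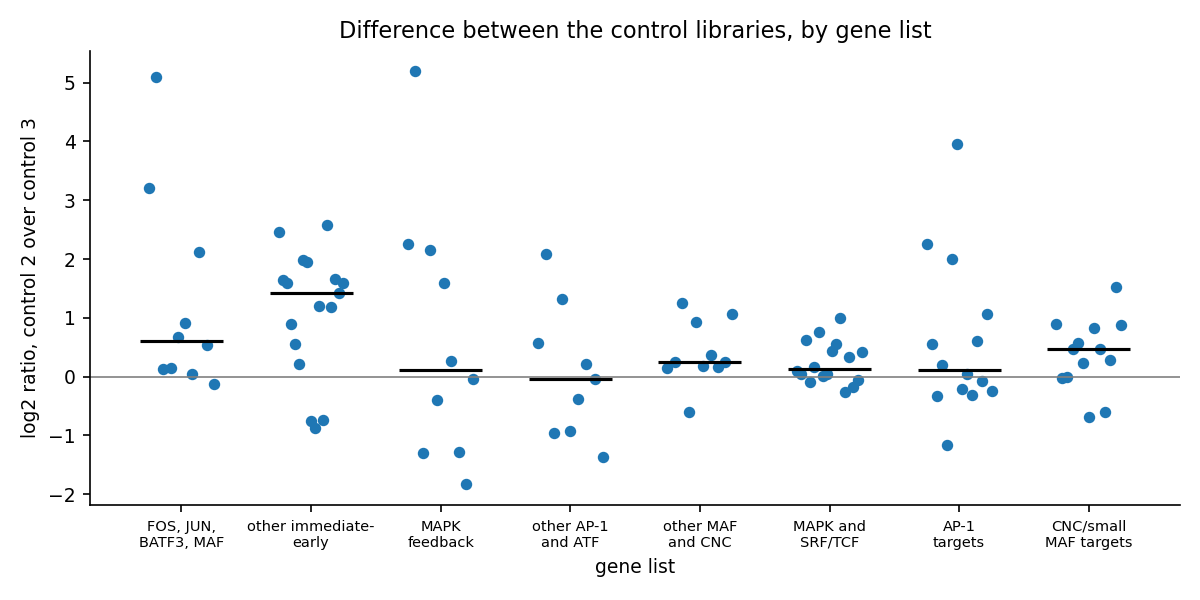
Each point is a gene, and the y axis gives the log2 ratio of its normalized count in control 2 over control 3, by gene list (x axis), with a bar at each median. The other immediate-early genes have the highest median, 1.42, and FOSB is the highest of the 10 AP-1 and MAF genes.

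The kinases and feedback genes around AP-1 were measured next. MAP kinases phosphorylate JUN and the factors that switch on FOS. For all tested genes, the shares were 1.14% called and 6.92% with an unadjusted DESeq2 p below 0.05. Of the 16 kinase and SRF/TCF genes, 0 were called, 1 had an unadjusted DESeq2 p below 0.05 and the median log2 fold change was -0.04. RPS6KA1, a kinase downstream of ERK, had a log2 fold change of -0.82 (DESeq2 adjusted p 0.629), MAPK14, which encodes p38α, one of 0.46 (0.766), and MAP3K1 one of -0.35 (1.00). Of the 10 MAP kinase phosphatases and feedback inhibitors, 0 were called and 1 had an unadjusted DESeq2 p below 0.05. That gene, DUSP6, which encodes an ERK phosphatase, had normalized counts of 11700.1 and 15351 in the controls and 21418 and 22258 in the cadmium libraries (log2 fold change 0.69, DESeq2 adjusted p 0.368). DUSP2 and DUSP10 had log2 fold changes of -2.07 and -0.71, and DUSP2 had 287 reads in control 2 and 7 in control 3. Of the 10 feedback genes, 4 were more than 2-fold higher in control 2 and 3 were more than 2-fold higher in control 3. Over all tested genes, 23.1% were more than 2-fold apart on either side. The median log2 ratio of control 2 over control 3 in the list was 0.11.

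Among the other genes whose proteins pair with these factors, none passed the test, where 1.14% of all tested genes did. Of the 9 other AP-1 and ATF genes, 0 were called, 0 had an unadjusted DESeq2 p below 0.05 and the median log2 fold change was 0.19. JDP2, a dimerization protein that represses AP-1, had normalized counts of 681 and 1766 in the controls and 2092 and 1821 in the cadmium libraries (log2 fold change 0.68, DESeq2 adjusted p 0.913). ATF4 and ATF2 had log2 fold changes of 0.32 and -0.25. Of the 11 other MAF, CNC and BACH genes, 10 could be tested and 0 were called. BACH1, the repressor that shares sites with NRF2 and small MAF pairs, had 2085 and 1746 in the controls and 3546 and 2460 in the cadmium libraries (log2 fold change 0.65, DESeq2 adjusted p 0.645). NFE2L3, a CNC factor, had a log2 fold change of -0.43 (0.825), and MAFG, the remaining small MAF gene, one of 0.26 (1.00).

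Target genes gave the only calls. Of 18 textbook AP-1 targets, 14 could be tested (MMP3, MMP9, MMP10 and MMP13 had too few reads) and 3 were called, all higher in cadmium, against 0.601% of tested genes called higher. The study's tables of changed genes and inferred regulators, made from the same libraries, had been read when this list was written, so these calls are not independent evidence. SERPINB2, a plasminogen activator inhibitor gene on chromosome 18, rose from 4 and 8 reads in the controls to 111 and 177 reads in the cadmium libraries. Its log2 fold change was 4.55 (SE 0.71) at a DESeq2 adjusted p of 1.78e-07. MMP1, which encodes interstitial collagenase, rose from normalized counts of 60.6 and 12.8 to 320 and 674. Its log2 fold change was 3.76 (SE 0.67) at a DESeq2 adjusted p of 2.01e-05. LAMB3, a laminin chain, rose from 23647 and 24789 to 41110.3 and 41526, with a log2 fold change of 0.77 at a DESeq2 adjusted p of 0.0986. For all 3 both cadmium libraries lay above both controls, but LAMB3 missed the threshold with TMM scaling (0.108) and without filtering (0.166) and lost its call without either cadmium library, and MMP1 had a DESeq2 adjusted p of 0.360 without cadmium 2, where SERPINB2 fell under the filter on low counts and had no adjusted p. The median of the list was 0.06, and the inflammatory target CXCL8, named after its values were seen, had normalized counts of 4484 in control 2, 289 in control 3, and 572 and 472 in the cadmium libraries.

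All 13 textbook targets of CNC and small MAF pairs, a list written in the same way, were tested. Of these 2 were called higher and 0 lower, against 0.601% and 0.535% of tested genes. The median log2 fold change was 0.30, against -0.02 over all tested genes. HMOX1, which encodes heme oxygenase, rose by 2.48 on the log2 scale (SE 0.36, DESeq2 adjusted p 1.58e-08), and SLC7A11, the cystine transporter gene, by 1.87 (SE 0.33, DESeq2 adjusted p 1.77e-05). HMOX1 kept its call in each fit with 1 library left out, whereas SLC7A11 had a DESeq2 adjusted p of 0.168 without cadmium 1 and of 0.532 without cadmium 2. FTL, a ferritin chain, had a log2 fold change of 0.79 at a DESeq2 adjusted p of 0.324. MAFF, MAFK and MAFG, whose proteins bind at these genes, had log2 fold changes of 0.13, -0.33 and 0.26, none of which passed the test. No called target had an edgeR adjusted p-value below 0.587.

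**Figure D5:**
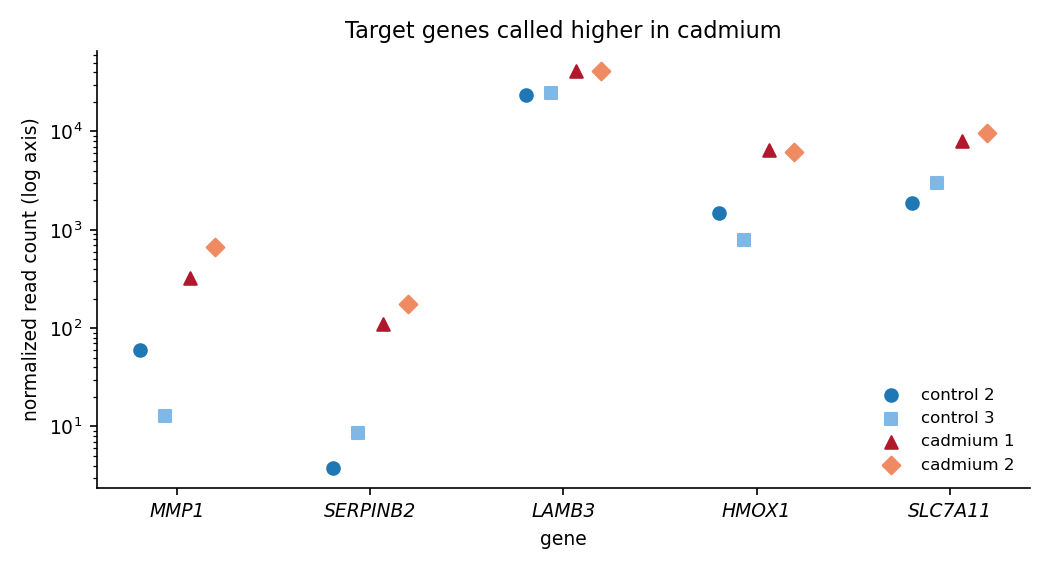
Points give the normalized read count (y axis, log scale) in each of the 4 libraries for the 5 target genes called higher in cadmium (x axis). Both cadmium libraries lie above both controls for each gene.

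The genes most like JUND and MAFF in pattern were sought among 14344 genes, by the distance between centred log2 counts over the 4 libraries. These were the members with the lowest p-value among those lower and higher in cadmium. SLC50A1, ICAM5 and RPL35P5 were nearest to JUND, at distances of 0.02, 0.04 and 0.07. C10orf55, ARHGEF7 and CDV3 were nearest to MAFF, at 0.02, 0.02 and 0.03. With 4 libraries many genes share any given pattern, so these names are a description only.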

How the data were processed

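Total RNA of control and cadmium-resistant MDA-MB-231 cells (2 libraries each) was sequenced as mRNA, although the labels list the molecule as genomic DNA. Per the study's methods, the file header and the submitters' processing notes, the authors trimmed adaptors with bbduk, aligned read pairs to hg38 with HISAT2 and deposited raw counts per gene from featureCounts 2.0.1 with default settings. Strand was ignored, multi-mapping reads were dropped and mates were counted singly: even numbers made up 70.6% to 71.5% of the counts from 1 to 20, so counts overstate fragments. Depth was 51934729 to 61916007 counts, and intervals assume the fitted spread.

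Symbols matched 61369 of 61541 genes. Control columns are numbered 2 and 3 where the labels number controls 1 and 2, and the header command names the control files by letters, so these columns were assigned to the group only. Size factors ranged from 0.940 to 1.06. DESeq2 1.42.0 in R 4.3.3 (Wald test, two-sided, Benjamini-Hochberg over all genes, threshold 0.1, mean normalized count of at least 7.69) was the main test, as in the study. edgeR 4.0.16, limma 3.58.1 (voom), TMM and upper-quartile scaling, no filter, at least 10 counts in 2 libraries, halved counts and leaving out each library were alternatives. TPM was computed from the counts and the deposited gene length. The scripts were tested on simulated data with 2 libraries per group. DESeq2 recovered 35.0% of the 2-fold and 88.0% of the 4-fold changes, and edgeR 1.5% and 83.5%. With no gene changed, DESeq2 called 59 and edgeR 10 of 33455 genes. A gene that was not called may therefore still differ.

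The members and lists were chosen with earlier results of these data known. Named genes are all 10 members, the 3 of each list with the lowest unadjusted p among genes averaging 50 normalized counts or more, and every called list gene. EGR1, KLF4, NR4A3, KLF10, CXCL8 and the markers VIM, CAV1, MSN, EPCAM, CDH1, PTPRC and LUM were named after their values were seen. Promoter sequences are from RefSeq and matched 7 members by symbol. Python 3.11.15 was used for summaries and plots.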

Additional observations from a re-analysis of the deposited data

How the results depend on the processing

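No paired analysis was possible because neither control column could be tied to a numbered label, and a fit with the replicate number as a block was therefore left out. Calls over all genes depended on the test: 119 higher and 106 lower with DESeq2 became 0 and 0 with edgeR and with limma-voom, which gave 1506 and 1423 genes at an unadjusted p below 0.05, and the 5 called list genes became 0 with each. The number of AP-1 and MAF genes called went from 0 to 1 (JUND) with at least 10 counts in 2 libraries. With each library left out in turn, calls over all genes ranged from 9 to 2678 higher and from 5 to 3511 lower, both lows without a cadmium library and both highs without control 3. Over the same fits, AP-1 and MAF genes called ranged from 0 to 6, list genes called from 1 to 45, and AP-1 and MAF genes with both cadmium libraries outside the control range from 4 to 10, the last with a lone control, where there is no range.

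With each library left out in turn, the log2 fold change ranged from -1.81 to 1.41 for FOS, -3.10 to 2.00 for FOSB, -1.80 to 0.33 for BATF3, -0.44 to 0.49 for JUNB, -0.22 to 0.46 for JUN and -0.12 to 0.42 for MAFF, each lowest without control 3 and highest without control 2. JUNB also turned without cadmium 2 (0.09), with upper-quartile scaling (0.0221) and with limma-voom (0.0193). FOSL1, FOSL2, JUND and MAFK were negative in every alternative run. The median over the 10 genes ranged from -0.57 to 0.38 in the same fits. The share of FOSL1 among FOS transcripts differed by -1.36 to 13.5 percentage points and that of JUN among JUN transcripts by 7.03 to 13.6 points in those runs.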
